A study of Homo sapiens with 4 samples.

Results

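Matrix metalloproteinases (MMPs) and tissue inhibitors of metalloproteinases (TIMPs) were examined in RNA sequencing of A549 cells, a human lung adenocarcinoma line. The 9 genes were MMP1, MMP2, MMP7, MMP14, MMP15, MMP24, TIMP1, TIMP2 and TIMP3, taken by symbol from the 57905 genes of the count table, and all 9 were found. The study asked how DCBLD2, a transmembrane protein related to the neuropilins, acts on A549 cells, and sequenced 4 stable lentiviral lines with 1 library per condition. The control named sc carried a scramble shRNA and shDCBLD2 carried an shRNA against DCBLD2, both in a puromycin-selected vector. The empty vector line and the line labelled DCBLD2 overexpression carried a blasticidin-selected vector, which in the latter holds the DCBLD2 coding sequence behind the EF1 promoter. The deposited table names the latter OE, and it is called the library labelled OE below. The lines were thus compared within vector pairs, and the 2 controls differ in both vector and selection drug. Which of the study's hairpins the shDCBLD2 library carries is not stated.

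MMPs are zinc-dependent endopeptidases that are made as inactive precursors and, once cut, digest collagens, laminins, fibronectin and other matrix proteins. Some are secreted, whereas the membrane-type members stay on the cell surface, and TIMPs as a family block the active site of both kinds. In lung, MMP7 is made by epithelial cells and rises in injured or fibrotic tissue, and several MMPs are followed in tumours because invading cells must pass through matrix. MMP14 on the cell surface, with TIMP2 as a bridge, activates the MMP2 precursor, so the members act as a network rather than singly.

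MMP7 and MMP2 formed the contrast of the data, since MMP7 was highest in the library labelled OE and lowest in shDCBLD2, while MMP2 was highest in shDCBLD2 and near the same level in the other 3 libraries. TIMP3, the inhibitor that binds to the matrix, was higher in both altered lines than in their controls. MMP24 was lower in shDCBLD2, and MMP14, MMP15, TIMP1 and TIMP2 differed by less than 2-fold in each comparison. MMP1 was barely counted. The ratios below compare single libraries, so no test or p-value is given and differences between cultures of one line were not measured.

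Library totals ranged from 16601633 to 21537283 counts. DCBLD2 was counted 9859 times in sc, 4259 in shDCBLD2, 7970 in empty vector and 4000 in the library labelled OE, so its mRNA was lower in both altered lines and the last label is not borne out by its own target. CDKN2A, a gene that A549 cells are known to lack, had 2104 counts there and 0 in the other 3 libraries, and its neighbour MTAP had 104 against 9 to 33. The 5 epithelial markers checked, among them KRT8 and KRT18, were above 3 counts in all 4 libraries, with summed levels of 17389 CPM (counts scaled by library size) in sc, 10150 in shDCBLD2, 12441 in empty vector and 17657 in the library labelled OE. Of the 3 alveolar type II markers, 1 or 2 were above 3 counts, with summed levels of 0.381 to 0.788 CPM. NKX2-1 had 7 counts in the library labelled OE and 0 in the other 3 libraries. SFTPB had 0 counts in sc, 6 in shDCBLD2, 1 in empty vector and 4 in the library labelled OE. SFTPC had 11, 3, 6 and 2 in the same order. Of 6 fibroblast markers, 5 exceeded 3 counts in the library labelled OE and 3 or 4 elsewhere, and their sum was 74.9 CPM against 37.5 to 58.2. DCN and LUM had only 4 and 1 counts in the library labelled OE and 0 in the other 3 libraries. THY1 had 64 counts in sc, 85 in shDCBLD2, 160 in empty vector and 114 in the library labelled OE. PDGFRB had 13, 4, 8 and 10 in the same order. The leukocyte genes PTPRC and AIF1 were at 0 in all 4 libraries, with CD14 giving most of a list sum of 3.76 to 20.8 CPM, and endothelial VWF and KDR were also at 0. Whether cells other than the labelled line contributed to the library labelled OE was not tested, and in bulk RNA a smaller number of cells of one type cannot be told apart from less RNA per cell.

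Promoter letters are shown for MMP7, MMP24 and TIMP3, the genes past 2-fold for which RefSeq on GRCh38.p14 gave a sequence. A sequence was found for 6 of the 9 members (MMP7, MMP14, MMP15, MMP24, TIMP1 and TIMP3). Each run goes from 5′ to 3′ from 250 bases before the RefSeq start and stops before the GENCODE 29 gene start where that lies earlier. Capitals mark the letters searched on both strands, which were TGAGTCA (the AP-1 element), CTTTGA (part of the TCF/LEF site), AGGAAG (the PEA3 type of ETS site), GGGCGG (the GC box bound by SP factors) and TATAAA, so a match on the opposite strand reads as its reverse complement, as the GC box does in CCGCCC.
MMP7: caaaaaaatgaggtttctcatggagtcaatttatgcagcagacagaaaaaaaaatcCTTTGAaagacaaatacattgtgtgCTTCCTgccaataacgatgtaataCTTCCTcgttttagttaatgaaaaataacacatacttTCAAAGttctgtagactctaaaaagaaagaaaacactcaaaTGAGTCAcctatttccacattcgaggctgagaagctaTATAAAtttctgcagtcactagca
MMP24: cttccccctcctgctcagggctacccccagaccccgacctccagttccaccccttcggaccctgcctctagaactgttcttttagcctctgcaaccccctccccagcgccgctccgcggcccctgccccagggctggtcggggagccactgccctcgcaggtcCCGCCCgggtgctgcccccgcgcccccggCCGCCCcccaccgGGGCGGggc
TIMP3: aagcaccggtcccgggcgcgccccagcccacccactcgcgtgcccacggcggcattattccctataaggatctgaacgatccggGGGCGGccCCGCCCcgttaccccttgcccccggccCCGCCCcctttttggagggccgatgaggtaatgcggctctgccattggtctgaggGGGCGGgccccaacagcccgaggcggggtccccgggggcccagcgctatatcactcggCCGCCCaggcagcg
The MMP7 run is chr11:102530754-102530997 on the minus strand, that of MMP24 chr20:35226440-35226653 on the plus strand and that of TIMP3 chr22:32801455-32801700 on the plus strand. Over the whole 250 bases, the MMP7 promoter was 33.6% G and C, against 77.6% for MMP24, 72.4% for TIMP3 and a median of 58% over 35116 promoters. MMP7 held the AP-1 letters starting 67 bases before the start, TCF/LEF letters at 194 and, on the opposite strand, 108 bases, ETS letters, both on the opposite strand, at 169 and 145 bases and TATAAA at 30 bases. MMP24 held 3 GC boxes and TIMP3 held 5, with none of the other 4 motifs. Of all promoters, 4.203% held TGAGTCA, 11.21% CTTTGA, 28.71% AGGAAG, 42.64% GGGCGG and 10.72% TATAAA on either strand. Among the other matched members, TIMP1 held 1 ETS motif and 2 GC boxes, MMP14 held 1 GC box and MMP15 held 5. These matches describe letters and are not evidence of binding.

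Levels of different genes were compared as deposited FPKM, counts per kilobase of exon relative to the library total. TIMP1 was the most abundant of the 9 in every library, at 72.35 FPKM in sc, 69.26 in shDCBLD2, 87.86 in empty vector and 113.74 in the library labelled OE. TIMP2 and MMP24 took the next places in all 4 libraries, with MMP24 ahead in sc and in the library labelled OE and TIMP2 ahead in the other 2. MMP15 took the fourth place in sc and in empty vector and the fifth in shDCBLD2 and the library labelled OE. The genes that moved were therefore mostly not the abundant ones. MMP7 and MMP2 did not differ beyond their counting intervals in sc or with the empty vector, nor did MMP2 and MMP15 in shDCBLD2. At the low end, TIMP3 and MMP14 overlapped in shDCBLD2, TIMP3 and MMP1 in sc and with the empty vector, and MMP14 and MMP1 in the library labelled OE. Counting intervals and floors throughout cover counting error only.

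**Figure D1:**
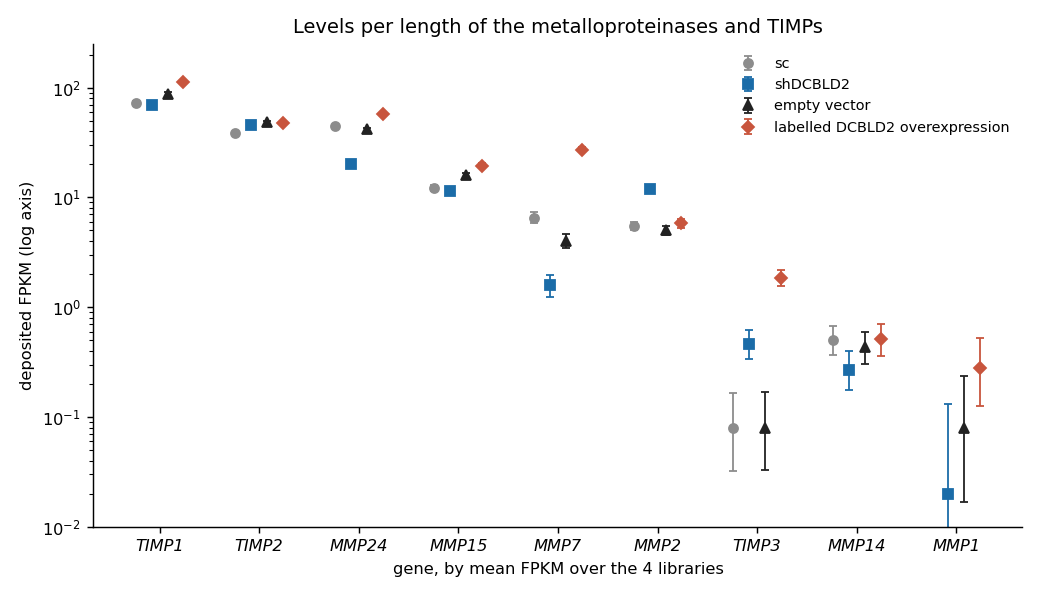
Deposited FPKM of the 9 genes on a log axis, 1 point per library with its 95% counting interval (gray circles sc, blue squares shDCBLD2, black triangles empty vector, red diamonds the library labelled OE). TIMP1, TIMP2 and MMP24 lie above 20 FPKM in each library, while MMP7 spans 1.58 to 27.30 FPKM. MMP1 in sc, listed at 0, is not drawn.

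MMP7, or matrilysin, is a small secreted protease that digests a wide range of matrix and cell-surface proteins. It lies at chr11:102391239-102401484 on the minus strand in the deposited coordinates, whose build the sources used here do not name in a form that matches these human genes. Its counts were 291 in sc, 79 in shDCBLD2, 174 in empty vector and 1053 in the library labelled OE, or 14.9, 3.66, 9.48 and 63.8 CPM. Both controls lay between the altered lines, with the empty vector below sc. Set against empty vector, MMP7 was 6.66-fold higher in the library labelled OE (log2 2.74, with a 95% counting interval from 2.52 to 2.99). In shDCBLD2 it was 3.98-fold lower than in sc, with a log2 ratio of -1.99 (-2.40 to -1.66). The controls themselves differed by -0.64 on the log2 scale (-0.93 to -0.37, empty vector against sc). DCBLD2 mRNA was lower than control in both altered lines, whereas MMP7 was higher in one and lower in the other. MMP7 stood 191st from the top of 13966 genes in the first comparison and 156th from the bottom in the second. With the controls exchanged, the log2 ratios were 2.09 and -1.35, so both directions held against either control. The summed epithelial markers given above had the same order of libraries as MMP7, but not its range. Their sum was 17657 CPM in the library labelled OE and 17389 in sc, where MMP7 was at 63.8 and 14.9 CPM. Among these markers, EPCAM had log2 ratios of 1.18 (0.67 to 1.79) in the library labelled OE and -1.37 (-2.16 to -0.76) in shDCBLD2. AKR1C1 was at -1.17 (-1.21 to -1.13) in shDCBLD2. With the controls exchanged these were under 2-fold, at 0.69 and -0.87 for EPCAM and -0.84 for AKR1C1. AKR1B10 did not have the order of MMP7, with 3296 CPM in sc, 2237 in shDCBLD2, 2417 in empty vector and 2322 in the library labelled OE. CDKN2A and MTAP counts were also highest in the library labelled OE, and the part of these genes in the MMP7 values was not tested.

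MMP2, a secreted gelatinase that cuts denatured collagen and basement membrane collagen, lies at chr16:55423612-55540603 on the plus strand. It had 521 counts in sc, 1269 in shDCBLD2, 465 in empty vector and 477 in the library labelled OE, or 26.6, 58.8, 25.3 and 28.9 CPM. Only the shDCBLD2 library stood away from the rest. Its log2 ratio to sc was 1.14 (1.00 to 1.29), 125th highest of 13966, and 1.21 with the empty vector as control. In the library labelled OE the ratio was 0.19 (0.003 to 0.38), and between the controls it was -0.07 (-0.26 to 0.11). Of the FPKM of the 3 secreted MMPs, MMP7 held 54.3% in sc, 11.7% in shDCBLD2, 43.9% in empty vector and 81.7% in the library labelled OE. MMP2 accounted for 45.7%, 88.2%, 55.3% and 17.4% in the same order. The FPKM ratio of MMP2 to MMP7 was thus 0.843 in sc, 7.56 in shDCBLD2, 1.26 in empty vector and 0.213 in the library labelled OE.

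MMP1, the interstitial collagenase, lies at chr11:102660651-102668891 on the minus strand. It had 0 counts in sc, 1 in shDCBLD2, 3 in empty vector and 9 in the library labelled OE. A count of 3 corresponds to 0.139 to 0.182 CPM in these libraries, so MMP1 was at or under the limit of detection in the first 3. The last library gave a log2 ratio of 1.25 to the empty vector, with an interval from -0.26 to 4.26 that includes no change. MMP1 had a mean level under 1 CPM and entered none of the counts of genes below.

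**Figure D2:**
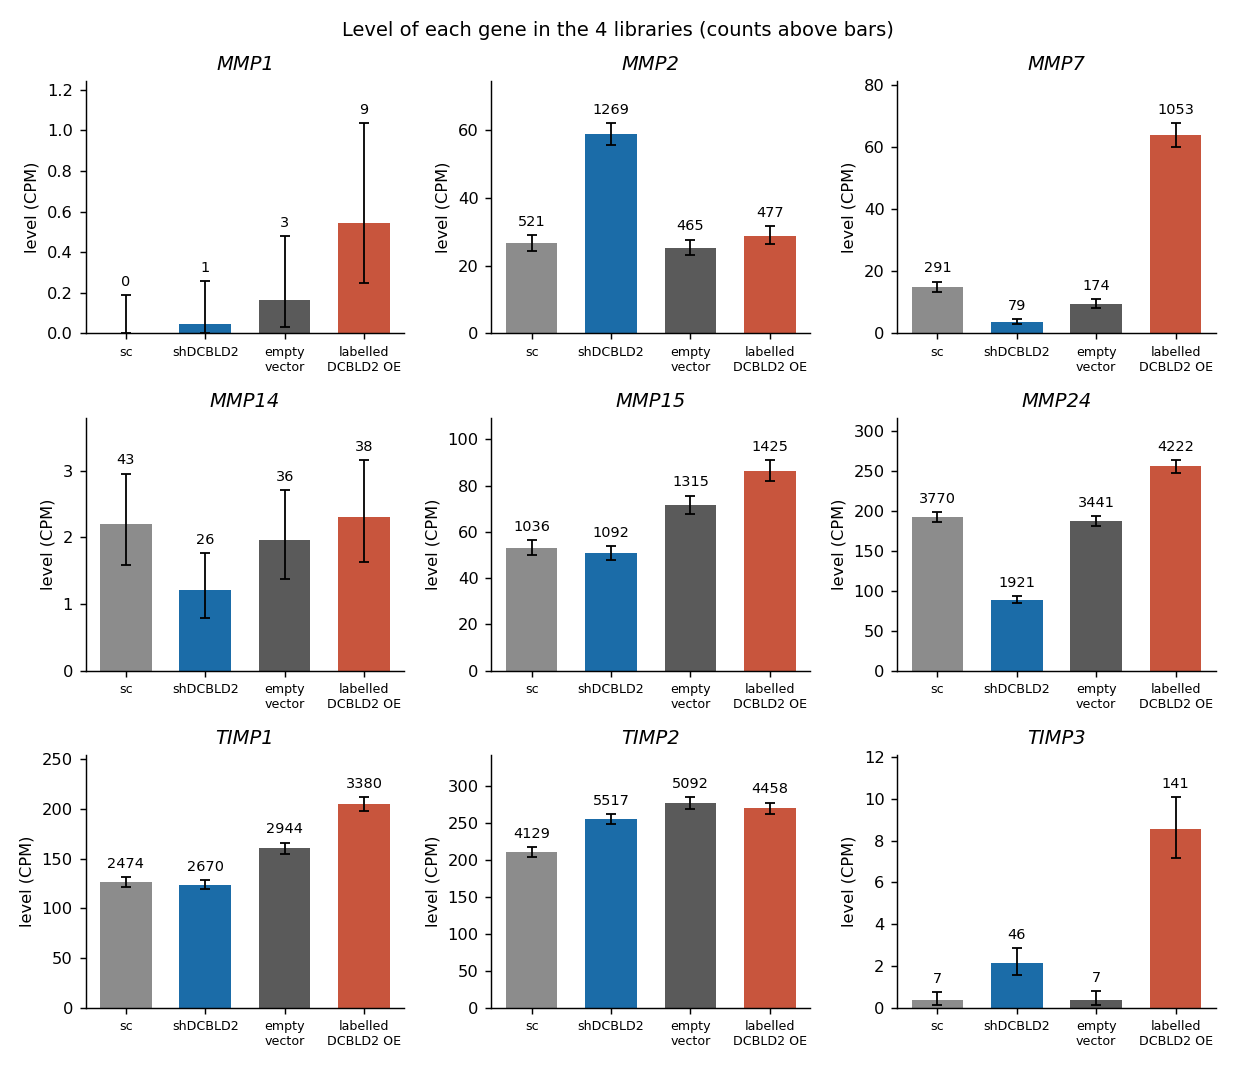
CPM of each of the 9 genes in the 4 libraries, with 95% Poisson intervals as bars and the counts printed above. MMP2 is high only in shDCBLD2 at 58.8 CPM, MMP7 and TIMP3 are highest in the library labelled OE at 63.8 and 8.54 CPM, and MMP24 is lowest in shDCBLD2 at 89.1 CPM. Each panel has its own scale from 0.

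Among the membrane-type MMPs, MMP24 was by far the most abundant. MMP24 is best known from nervous tissue, where it cleaves cadherins, and lies at chr20:33814457-33864801 on the plus strand. Counts were 3770 in sc, 1921 in shDCBLD2, 3441 in empty vector and 4222 in the library labelled OE, or 193, 89.1, 187 and 256 CPM. The controls lay close together, with a log2 ratio of -0.04 (-0.11 to 0.03), and shDCBLD2 lay below both. Against sc it was 2.16-fold lower, at -1.11 (-1.19 to -1.03), the 653rd lowest of 13966, and against the empty vector the log2 ratio was -1.07. The library labelled OE was 0.45 above the empty vector (0.38 to 0.51), under 2-fold.

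MMP24 values carry an uncertainty of assignment. EDEM2 and MMP24-AS1 lie across it on the opposite strand, and the counting is not stated to use strand. In GENCODE 29, 961 of its 4414 exonic bases (21.8%) are shared with other genes, 799 of them with MMP24OS. EDEM2 had 1322, 1372, 1574 and 1574 counts in sc, shDCBLD2, empty vector and the library labelled OE, and its log2 ratio in shDCBLD2 was -0.09 (-0.20 to 0.02). MMP24-AS1 had 554, 453, 951 and 868 counts, with a ratio of -0.43 (-0.61 to -0.25) in shDCBLD2. Neither neighbour was lower by as much as MMP24 in that library. How reads were divided between the strands was not tested.

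MMP15, another membrane-type enzyme, lies at chr16:58059470-58080805 on the plus strand. It had 1036 counts in sc, 1092 in shDCBLD2, 1315 in empty vector and 1425 in the library labelled OE, or 53.0, 50.6, 71.6 and 86.3 CPM. The blasticidin-selected pair lay above the puromycin-selected pair. Within pairs the log2 ratios were 0.27 (0.16 to 0.38) for the library labelled OE and -0.06 (-0.19 to 0.06) for shDCBLD2, and between the controls the value was 0.44 (0.32 to 0.55). The difference between control lines was thus the largest of the 3 for this gene.

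MMP14, the membrane enzyme that activates the MMP2 precursor, lies at chr14:23305766-23318236 on the plus strand. It was low, with 43 counts in sc, 26 in shDCBLD2, 36 in empty vector and 38 in the library labelled OE, or 2.20, 1.21, 1.96 and 2.30 CPM. The shDCBLD2 library was the lowest, at a log2 ratio of -0.82 with an interval of -1.63 to -0.13 that excludes no change but does not exclude a small one. The library labelled OE gave 0.22 (-0.47 to 0.93) and the controls -0.16 (-0.84 to 0.51), neither detectable at this depth. With MMP2 high and MMP14 low in shDCBLD2, the FPKM ratio of MMP2 to MMP14 was 44.2 there, against 11.1 in sc, 11.7 in empty vector and 11.4 in the library labelled OE.

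**Figure D3:**
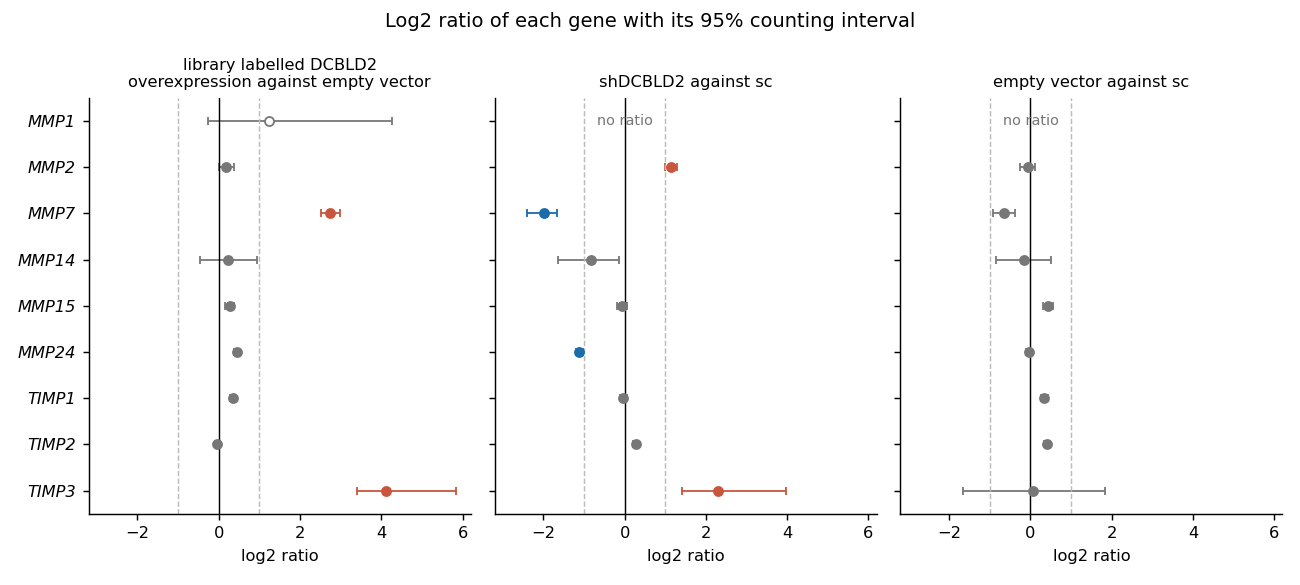
Log2 ratio of each gene in 3 comparisons with its 95% counting interval. Dashed lines mark 2-fold, red points lie past 2-fold upward, blue points downward, and the open point is MMP1, which did not pass the filter on low counts. MMP7 lies at 2.74 in the first panel and -1.99 in the second, TIMP3 at 4.13 and 2.29, and all 8 genes drawn in the control comparison stay within 2-fold. MMP1 has no ratio where both libraries are at or under 3 counts.

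TIMP1, a secreted inhibitor of many MMPs, lies at chrX:47441712-47446188 on the plus strand, within SYN1 on the opposite strand, which had 2 to 9 counts. Its counts were 2474 in sc, 2670 in shDCBLD2, 2944 in empty vector and 3380 in the library labelled OE, or 126, 124, 160 and 205 CPM. As with MMP15, the blasticidin-selected pair lay higher. The log2 ratios were 0.35 (0.28 to 0.42) for the library labelled OE, -0.03 (-0.11 to 0.05) for shDCBLD2 and 0.34 (0.27 to 0.42) between controls, so the first was about the size of the gap between the control lines.

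TIMP2, which both inhibits MMPs and takes part in MMP2 activation, lies at chr17:76849059-76921469 on the minus strand. It had 4129 counts in sc, 5517 in shDCBLD2, 5092 in empty vector and 4458 in the library labelled OE, or 211, 256, 277 and 270 CPM. The sc library was the lowest and the other 3 lay close together. Log2 ratios were -0.04 (-0.10 to 0.02), 0.28 (0.22 to 0.34) and 0.39 (0.33 to 0.45) for the library labelled OE, shDCBLD2 and the empty vector against sc. Other genes share 10.03% of its annotated exonic bases. With MMP2 higher in shDCBLD2, the FPKM ratio of TIMP2 to MMP2 was lowest there, at 3.81, against 6.94 in sc, 9.58 in empty vector and 8.19 in the library labelled OE.

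TIMP3 inhibits MMPs and also ADAM and ADAMTS proteases, and stays bound to the matrix. It lies at chr22:33197687-33259030 on the plus strand, within SYN3 on the opposite strand, which had at most 4 counts. TIMP3 had 7 counts in sc, 46 in shDCBLD2, 7 in empty vector and 141 in the library labelled OE, or 0.358, 2.13, 0.381 and 8.54 CPM. Both controls were near the limit of detection and both altered lines lay above them. The library labelled OE was 17.5-fold above the empty vector, a log2 ratio of 4.13 (3.40 to 5.83), the 101st highest of 13966. In shDCBLD2 the level was 4.90-fold that of sc, at 2.29 (1.42 to 3.97), the 10th highest. The controls did not differ detectably, at 0.07 (-1.65 to 1.83). TIMP3 reached a mean of 1 CPM only with the library labelled OE included, so that its place among the genes past the filter rests on that library. The fibroblast marker sum was 37.5 CPM in sc, 58.2 in shDCBLD2, 44.7 in empty vector and 74.9 in the library labelled OE. COL1A1 alone gave 54.0 of the 58.2 CPM in shDCBLD2, where COL1A2 had 1 count against 17 in sc, PDGFRB had 4 against 13, and DCN and LUM were at 0. In the library labelled OE, COL1A1 gave 63.1 CPM, COL1A2 had 67 counts, and DCN and LUM had 4 and 1. PDGFRB had 10 counts there against 8 in empty vector. THY1 had 64 counts in sc, 85 in shDCBLD2, 160 in empty vector and 114 in the library labelled OE. The part of these genes in the TIMP3 values was not tested. Even at its highest, 1.85 FPKM, it remained far under TIMP1 and TIMP2.

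Summed over the 9 genes, FPKM was 180.4 in sc, 160.7 in shDCBLD2, 203.4 in empty vector and 274.2 in the library labelled OE. TIMP1 and TIMP2 together held 61.4%, 71.4%, 67.0% and 58.9% of it. The ratio of TIMP to MMP FPKM was 1.59 in sc, 2.53 in shDCBLD2, 2.03 in empty vector and 1.47 in the library labelled OE. It was highest in shDCBLD2, but the 2 controls themselves stood apart at 1.59 and 2.03. Without MMP24, whose counts may be shared with antisense genes, the ratio was 4.46, 4.56, 5.35 and 3.06 in the same order, and shDCBLD2 no longer stood above both controls. Ratios of mRNA do not measure protease activity.

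To set the members beside all genes, only genes at least 2-fold apart whose interval left out no change were counted, among the 13966 genes with a mean of at least 1 CPM. Comparing the library labelled OE with empty vector, 2 of the 8 members past the filter were higher (MMP7 and TIMP3), against 6.39% of all genes, and 0 were lower, against 5.29%. For shDCBLD2 against sc, 2 were higher (MMP2 and TIMP3), against 1.17% of all genes, and 2 were lower (MMP7 and MMP24), against 5.65%. Between the controls, 0 were higher and 0 lower, against 2.21% and 1.89%. Without the library labelled OE in the filter, TIMP3 dropped out and 1 member, MMP2, was higher in shDCBLD2. The medians over the 8 members were 0.31, -0.05 and 0.02 on the log2 scale in the 3 comparisons, against -0.04, 0.01 and -0.01 over all genes. With 8 genes, 1 of them past the filter through a library in which it was high, these shares are a description.

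**Figure D4:**
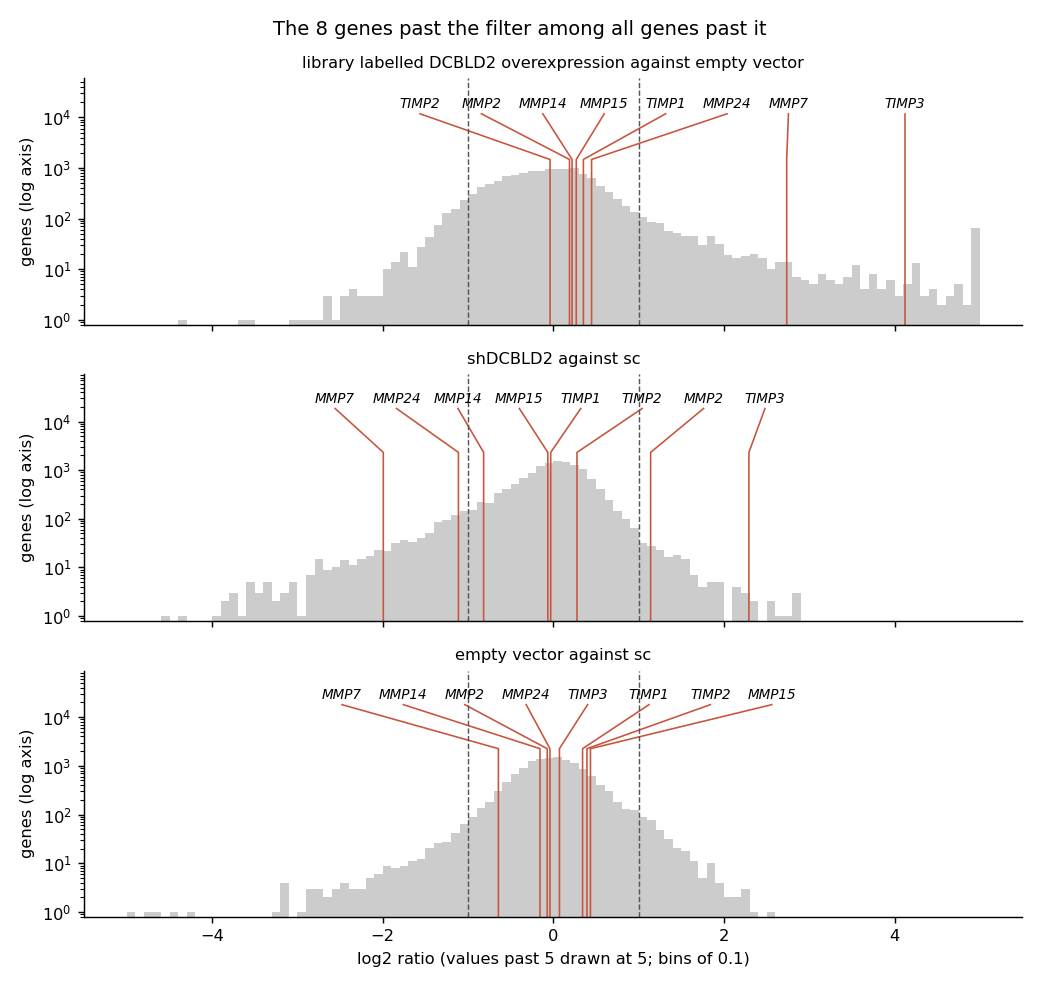
Number of genes (log axis) by log2 ratio in the 3 comparisons, for all 13966 genes past the filter in gray, with the 8 members that passed it marked by red lines. Dashed lines mark 2-fold. MMP7 and TIMP3 lie in the upper tail of the first panel, MMP7 and MMP24 in the lower and MMP2 and TIMP3 in the upper tail of the second, and no member lies past 2-fold in the third.

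Genes with the profile most like each moved member over the 4 libraries were taken by the distance of their centred log2 CPM. DEGS2, CDH6 and PCDH1 were nearest to MMP7, at distances of 0.237, 0.252 and 0.253. DEGS2 had 96 counts in sc, 32 in shDCBLD2, 65 in empty vector and 390 in the library labelled OE. For MMP2 the nearest were CD3EAP (0.0612), ANXA8L1 (0.106) and a locus known only by a clone name (0.116), and for MMP24 they were FSCN2 (0.0176), RIMS3 (0.0509) and SLC44A3 (0.0734). The neighbours of TIMP3 were further off, namely IGFL1 (0.321), MTAP (0.871) and GAL (1.01). MTAP is the gene given above beside CDKN2A. It had 9 counts in sc, 33 in shDCBLD2, 11 in empty vector and 104 in the library labelled OE. That is the order of libraries of TIMP3, which the choice of MTAP as a near profile made likely beforehand. MTAP, IGFL1 and CDH6 passed the filter only through the library labelled OE, in which they were high. With 4 points per profile, such likeness is only a description.

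Other MMPs were mostly low or not counted, since 4 of 18 genes in a list of the remaining MMPs and TIMP4 passed the filter. Below the filter, MMP11 had 15 counts in sc, 3 in shDCBLD2, 20 in empty vector and 29 in the library labelled OE. MMP16 had 6, 19, 9 and 16 in the same order. In shDCBLD2 their log2 ratios were -1.87 (-4.89 to -0.64) and 1.28 (0.14 to 3.14). MMP28, or epilysin, a secreted enzyme of epithelia, had 50 counts in empty vector and 287 in the library labelled OE, a log2 ratio of 2.62 (2.24 to 3.14), and -0.08 (-0.58 to 0.42) in shDCBLD2. TIMP4 had 147 and 299 counts in the first pair, a ratio of 1.17 (0.89 to 1.47) that was 0.80 with sc as control, under 2-fold, and -0.30 (-0.60 to -0.003) in shDCBLD2. MMP28 thus stood with MMP7 in the first comparison but showed no detectable difference in the second. The other 2 past the filter, MMP17 and MMP25, were under 2-fold in each comparison. The list medians were 0.48, 0.03 and 0.03 in the 3 comparisons.

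The related ADAM and ADAMTS proteases, which shed surface proteins and cut proteoglycans, had 12 of 16 genes past the filter. For the library labelled OE, 1 was higher and 1 lower, where 6.39% and 5.29% of all genes were. ADAMTS1, a protease of proteoglycans, had 10 counts in empty vector and 308 in that library, a log2 ratio of 4.83 (4.20 to 6.17). At 0.545 to 0.818 CPM in the other 3 libraries, ADAMTS1 passed the filter only through that library. ADAMTS12 went from 197 to 78, at -1.16 (-1.58 to -0.80). ADAM19 was the 1 gene past 2-fold in shDCBLD2, where 1.17% of all genes were higher. It had 947 counts in sc and 2164 in shDCBLD2, at 1.05 (0.94 to 1.16), or 0.92 with the empty vector as control. Sheddases ADAM10 and ADAM17 lay between -0.47 and 0.07 in both comparisons. List medians were -0.04, 0.02 and -0.19.

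Activators and cell-surface partners of MMPs had 11 of 13 genes past the filter, with 2 higher and 0 lower in the library labelled OE. Of all genes, 6.39% were higher and 5.29% lower in that comparison. PCSK6, a proprotein convertase of the furin family, gave a log2 ratio of 1.45 (1.25 to 1.66), and PLAT, the tissue plasminogen activator, gave 1.39 (1.14 to 1.67). FURIN, which cuts the precursors of membrane-type MMPs, was 0.80 (0.73 to 0.87), under 2-fold. The list median was 0.76, against -0.05 in shDCBLD2. There PCSK5, another convertase, was the 1 gene lower, at -1.23 (-1.53 to -0.95), against 5.65% of all genes. PCSK5 was also the 1 gene lower between the controls, at -1.38 (-1.72 to -1.08), and with the empty vector as control its ratio in shDCBLD2 was 0.15 (-0.21 to 0.52), so that sc stood apart rather than shDCBLD2. PLAU, named after its value was seen, was the 1 gene higher between the controls, and the median there was 0.11. Of all genes, 2.21% were higher and 1.89% lower between the controls. CD44 and BSG, surface proteins that hold or induce MMPs, were within 0.40 of no change in both main comparisons.

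Of 8 other protease inhibitors, 6 passed the filter. TFPI2, an inhibitor of plasmin found in matrix, was higher in the library labelled OE, at 1.13 (1.03 to 1.23), or 0.68 with sc as control, as was the proteoglycan gene SPOCK2 with 22 and 43 counts, at 1.05 (0.35 to 1.93). In shDCBLD2, SPOCK1, another proteoglycan gene, was higher at 1.52 (1.34 to 1.72). RECK, a membrane-anchored inhibitor of MMPs, was -0.47 (-0.81 to -0.14) and 0.06 (-0.24 to 0.37) in the 2 comparisons. Of all genes, 6.39% were higher and 5.29% lower in the library labelled OE, and 1.17% and 5.65% in shDCBLD2. No gene of the list passed 2-fold between the controls, where 2.21% of all genes were higher and 1.89% lower. The list medians were 0.46, 0.17 and 0.16.

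**Figure D5:**
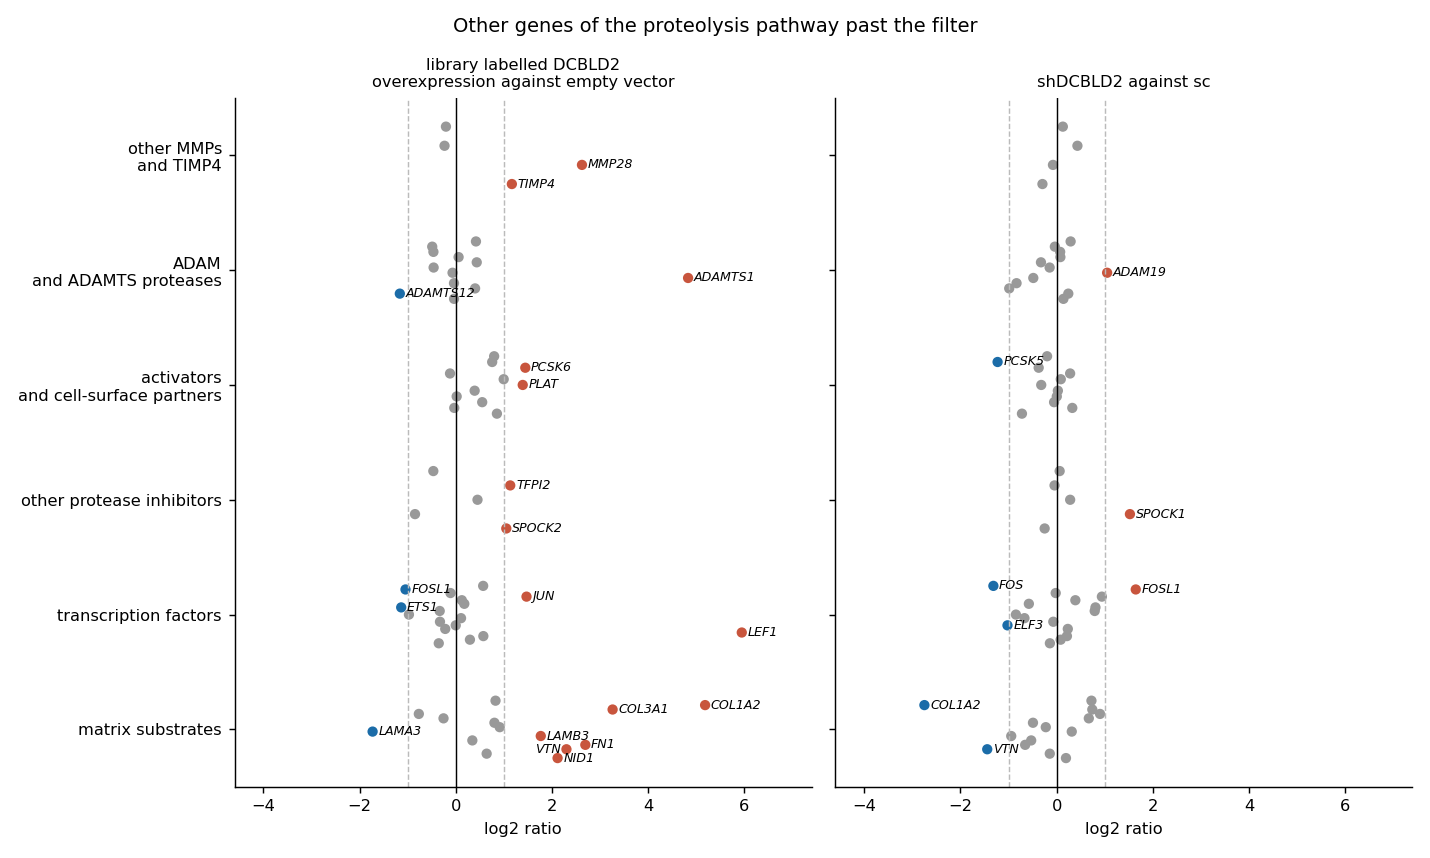
Log2 ratio of the genes reported here that passed the filter in 6 lists of the proteolysis pathway, 1 point per gene, for the library labelled OE against empty vector (left) and shDCBLD2 against sc (right). Red points were higher and blue points lower by 2-fold or more, with intervals clear of 0. ADAMTS1 at 4.83 and MMP28 at 2.62 lie far right on the left panel, and FOSL1 lies at -1.05 on the left and 1.65 on the right. The points of LEF1 and COL1A2 on the left depend on the prior count, since the control had 0 counts.

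Transcription factors of the AP-1, ETS and TCF/LEF families, listed with CTNNB1, had 17 of 18 genes past the filter. Factors that bind the GC box or TATAAA were not listed. The list medians in shDCBLD2 and between the controls fell on LEF1, which had 0 counts in those libraries, so they do not describe the list. In the library labelled OE 2 were higher and 2 lower, where 6.39% and 5.29% of all genes were. LEF1, a partner of β-catenin, had 115 counts there and 0 in the other 3 libraries, at least 42.6-fold higher than a floor of 3 counts in the empty vector library, and it passed the filter only because of the counts in the library labelled OE. JUN, a subunit of AP-1, was higher at 1.47 (1.36 to 1.58), while FOSL1, another AP-1 subunit, and ETS1 were lower, at -1.05 (-1.24 to -0.86) and -1.14 (-1.45 to -0.85), or -0.70 and -0.82 with sc as control. In shDCBLD2, FOSL1 was higher at 1.65 (1.52 to 1.78), with FOS and ELF3, an epithelial ETS factor, lower at -1.32 (-1.83 to -0.88) and -1.02 (-1.11 to -0.94). Between the controls 1 gene was higher, against 2.21% of all genes. The part of these factors in the values of MMP7 was not tested.

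Matrix genes that MMPs digest had 15 of 17 past the filter, and in the library labelled OE 6 were higher and 1 lower, with a median of 0.83, where 6.39% and 5.29% of all genes were. COL1A2 and COL3A1 are among the 6 and passed the filter only through that library, in which they were high. COL1A2 had 67 counts there and 0 with the empty vector, at least 24.8-fold higher, and COL3A1 was at 3.26 (2.46 to 5.15). LAMA3, a laminin chain of epithelial basement membranes, was lower at -1.73 (-2.01 to -1.48). The remaining 4 higher genes, named after their values were seen, were FN1 at 2.69 (2.66 to 2.73), VTN at 2.30 (2.15 to 2.47), NID1 at 2.12 (1.93 to 2.33) and LAMB3 at 1.77 (1.63 to 1.92). FN1 had 1120 CPM in sc, 712 in shDCBLD2, 362 in empty vector and 2343 in the library labelled OE, so that with sc as control its ratio was 1.06 (1.04 to 1.09). COL1A2 is also 1 of the fibroblast markers whose levels are given above. In shDCBLD2 the median was -0.14, with COL1A2 and VTN lower, at -2.75 (-9.61 to -1.55) on 1 and 17 counts and -1.44 (-1.68 to -1.23). With the empty vector as control, VTN was still lower but under 2-fold, at -0.94 (-1.19 to -0.71), and COL1A2 was at the floor in both libraries. Between the controls 0 were higher and 2 lower, against 2.21% and 1.89% of all genes, with a median of 0.06. The 2 were FN1 at -1.63 (-1.67 to -1.59) and COL1A2 with 17 counts in sc and 0 in empty vector.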

How the data were processed

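RNA was sequenced from 4 A549 lines, 1 library each, after poly(A) selection per the labels. The authors deposited raw read counts per gene, which were used as deposited, and FPKM values, which the values themselves show to be counts per kilobase of exonic size relative to the library total. The aligner, counter, annotation and strand setting are not given in the sources used here, and the submitters' processing notes name only mm9, a mouse build, although the gene identifiers are human.

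Counts were scaled with TMM factors (edgeR 4.0.16, R 4.3.3) to CPM. Log2 ratios used a prior count of 2, with 95% intervals taken from the first library's share of both counts (exact Clopper-Pearson). Levels carry exact Poisson intervals. Genes with a mean of at least 1 CPM over the 4 libraries entered the summaries (13966 of 57905), and a ratio against a library at 0 was bounded with a floor of 3 counts. Tables were handled in Python 3.11.15 (pandas 2.3.3, numpy 2.4.6), intervals in scipy 1.17.1 and plots in matplotlib 3.10.9. No p-value was computed, as no condition has a replicate. The scripts were tested on simulated data. For a repeated symbol, the most counted entry was taken. The members and gene lists were chosen with earlier results of these data known. Besides the 9 members, the text names the 2 highest and 2 lowest genes past 2-fold of each list in the 2 main comparisons, the 3 nearest profiles of each moved member, overlapping genes, markers and DCBLD2, and other genes after their values were seen. Alternatives were DESeq2 1.42.0 size factors, library totals alone, prior counts of 0.5 and 5, counts drawn down to the smallest total, deposited FPKM, a 1.5-fold threshold, no filter or 5 CPM, and the other control. Some genes of the lists are not reported here.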

Additional observations from a re-analysis of the deposited data

How the results depend on the processing

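Of the recomputed log2 ratios of members, 173 moved by less than their main interval and 10 by more. None of those past 2-fold changed sign. Of the others, TIMP2 did with the controls exchanged (values below), and TIMP3 between the controls went from 0.07 to -0.32 with counts drawn down. With sc as the control, the library labelled OE gave 0.70 for MMP15, 0.69 for TIMP1 and 0.36 for TIMP2, and with the empty vector as the control shDCBLD2 gave -0.50, -0.37 and -0.12. The number of members past the fold was within 1.5 times the main count in 34 recounts and further off in 4. At a mean of 5 CPM, 1 member was higher in each main comparison, since TIMP3 no longer passed. Without the library labelled OE in the scaling and filter, an alternative chosen after seeing the data, 1 member was higher in shDCBLD2. The other control for listed genes was also chosen after seeing the data. At 1.5-fold, 1 member, MMP7, was lower with the empty vector than in sc.

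Counts over all genes moved more. For the library labelled OE, the 893 genes higher became 1788 at 1.5-fold, 1869 with no filter and 339 at 5 CPM, and the 739 lower became 2481 at 1.5-fold, 492 at 5 CPM and 1252 with sc as the control. For shDCBLD2, the 163 higher became 690, 419 and 61 at 1.5-fold, with no filter and at 5 CPM, and 312 with the empty vector as the control, and the 789 lower became 1621, 1278 and 338. Between the controls, 309 higher became 987, 593 and 96, and 264 lower became 932, 524 and 84. With fewer genes tested at 5 CPM and more with no filter, the counts change with the number of genes. The 1.5-fold threshold keeps each gene past 2-fold and can only add others. The cause of the changes with the other control was not tested. MMP1, MMP14 and TIMP3 in the controls are limited by depth. No paired analysis was possible because each condition has 1 library.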

Other observations

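The deposited annotation also marks 105 genes with metalloendopeptidase activity, a term chosen after the data were seen. Of these, 57 passed the filter and 30 had at most 3 counts in all 4 libraries. Comparing the library labelled OE with empty vector, 6 were higher and 5 lower, with a median log2 ratio of -0.04, where 6.39% and 5.29% of all genes were. ADAMTS1, ADAMTS2 and ECEL1 passed the filter only through that library, in which they were high. Besides MMP7, MMP28 and ADAMTS1, the higher genes were ECEL1, a membrane peptidase related to endothelin-converting enzyme, with 7 counts and 109 counts (3.76, interval 3.02 to 5.46), ADAMTS2, which trims procollagen, at 1.85 (1.10 to 3.02), and TRABD2B at 1.23 (0.54 to 2.13). The lower genes besides ADAMTS12 act inside cells or on Wnt proteins, namely IDE, the insulin-degrading enzyme, at -1.04 (-1.25 to -0.83), the peptidase gene NLN at -1.31 (-1.47 to -1.16), OMA1, a protease of the mitochondrial inner membrane, at -1.42 (-2.05 to -0.92), and TRABD2A at -1.54 (-2.02 to -1.14).

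TRABD2A and TRABD2B, which encode surface proteases that cut Wnt proteins, also separated the 2 control lines. TRABD2A had 87 counts in sc, 194 in shDCBLD2, 195 in empty vector and 59 in the library labelled OE, and TRABD2B had 84, 36, 21 and 47. In both genes the sc library stood away from the empty vector by over 2-fold, at 1.24 (0.88 to 1.64) and -1.82 (-2.67 to -1.20). With the controls exchanged, neither was past 2-fold in either altered line, at -0.31 and -0.57 in the library labelled OE and -0.24 and 0.51 in shDCBLD2. ADAM11 at 1.01 (0.72 to 1.32) and ADAMTS9 at -1.56 (-1.85 to -1.30) differed between the controls too, so the count of the term there was 2 higher and 2 lower, close to the 3 higher and 3 lower of shDCBLD2 against sc. Of all genes, 2.21% were higher and 1.89% lower between the controls, and 1.17% and 5.65% in shDCBLD2.

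The annotation gives metalloendopeptidase inhibitor activity to 13 genes, of which 9 passed the filter. For the library labelled OE, 4 were higher and 0 lower, where 6.39% and 5.29% of all genes were. They were TIMP3, TIMP4, BST2, an interferon-induced membrane protein, with 7 and 97 counts (3.59, interval 2.85 to 5.30), and COL4A3, a basement membrane collagen chain, with 86 and 180 counts (1.20, interval 0.84 to 1.61, or 0.55 with sc as control). TIMP3 and BST2 passed the filter only through that library, in which they were high. BST2 and COL4A3 were lower in shDCBLD2, at -1.78 (-4.80 to -0.52) on 3 and 14 counts (-1.01, interval -4.04 to 0.68, with the empty vector as control) and -1.84 (-2.42 to -1.39), while TIMP3 and SPOCK1 were higher. Of all genes, 1.17% were higher and 5.65% lower in shDCBLD2. No gene of this term passed 2-fold between the controls, where 2.21% of all genes were higher and 1.89% lower.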
